A study of Mus musculus with 2 samples.

Results

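Nr4a1, Nr4a2, Nr4a3, Fos, Fosb, Jun, Junb, Jund, Egr1 and Btg2 are early response genes, and their transcripts were measured in single nuclei of the mouse gastrocnemius and plantaris, both calf muscles. These 10 genes, of 32285 in the deposited table, were chosen because earlier results on the same data had shown several of them to differ between the muscles or between fibre types. Their levels by fibre type and muscle, which guided that choice, are therefore given as a description with no test. The mice were C57BL/6 wild type, aged 12 weeks, and no treatment is named, so the only group variable was the muscle. There was 1 library per muscle, and the number of mice behind each library, their sex and any pooling are not stated. With 1 library per muscle, the muscle, the mice and the library preparation cannot be told apart, and no difference between them has a replicate check.

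The NR4A receptors Nr4a1, Nr4a2 and Nr4a3 are orphan nuclear receptors that act without a known ligand, and their activity is thought to follow the amount made. They are switched on within minutes to hours by cAMP, calcium and stress signals, and in skeletal muscle they are known as regulators of glucose and lipid metabolism that respond to adrenergic signals and to exercise. Fos, Fosb, Jun, Junb and Jund encode subunits of AP-1, a dimeric transcription factor, Egr1 encodes a zinc finger factor that serum and stretch induce, and Btg2 encodes an antiproliferative protein that recruits the CCR4-NOT deadenylase to mRNA.

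The gastrocnemius library held 7374 nuclei with a median of 2260 UMIs (unique molecular identifiers, each standing for 1 captured RNA molecule), and the plantaris library 9156 nuclei with a median of 2714 UMIs. Myonuclei, the nuclei of the muscle fibres, numbered 5077 in gastrocnemius and 5798 in plantaris after clustering, and nuclei of other cell types 1961 and 3145. Classes carry the name of the type their markers resemble. A cluster of 540 nuclei led by myonuclear markers stayed unnamed, because the markers of another type reached 30% or more of its myonuclear marker level, and it is in neither class. Myonuclei were split by the myosin heavy chain transcript with the most UMIs in the nucleus. Myh4 marks the fastest, glycolytic IIb fibres, Myh1 the IIx fibres and Myh2 the fast oxidative IIa fibres. Gastrocnemius held 4544 Myh4 nuclei, 132 Myh1 nuclei and 174 Myh2 nuclei, and plantaris 4180, 763 and 568. The Myh7 nuclei of slow fibres numbered 22 and 6 and are not used for comparisons. Most Myh4 nuclei of each muscle lay in clusters made mostly of 1 library, even though the 10 genes were left out of the clustering.

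Nr4a1 lies on chromosome 15 (101254269 to 101274795, forward strand) and Nr4a2 on chromosome 2 (57106830 to 57124003, reverse strand) in build GRCm38. Nr4a3 and Jun share chromosome 4, at 48045153 to 48086447 (forward) and 95049034 to 95052222 (reverse). Fos lies on chromosome 12 (85473890 to 85477273, forward), Fosb on chromosome 7 (19302696 to 19310051, reverse) and Btg2 on chromosome 1 (134075170 to 134079120, reverse). Junb (84974484 to 84978718, reverse) and Jund (70698949 to 70700616, forward) lie on chromosome 8. Egr1 was left out of the sequence search.

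The promoters of the 3 receptors are shown because they share a feature that the choice of genes did not use. CREB, the factor activated by cAMP, binds the cAMP response element TGACGTCA or its core CGTCA. In the 250 bases before the RefSeq start, CGTCA on either strand occurred 4 times in Nr4a1, 4 times in Nr4a2 and 4 times in Nr4a3. Of 32851 such windows in the RefSeq table of GRCm38.p6, 17.8% held the core at least 1 time and 0.137%, or 45 windows, at least 4 times. Fos is shown beside them as an AP-1 gene with 2 matches. Capitals mark CGTCA or its reverse complement TGACG, and each sequence runs 5′ to 3′ on the strand of the gene. The windows are chr15:101266596-101266845 (forward), chr2:57124004-57124253 (reverse), chr4:48045055-48045152 (forward) and chr12:85473640-85473889 (forward). The Nr4a1 window lies upstream of the RefSeq start and inside the longer GENCODE gene model, where it overlaps no exon. For Nr4a3 the first 98 bases are printed, which hold 3 of its 4 matches, because the other 152 are exon in the GENCODE annotation.
Nr4a1: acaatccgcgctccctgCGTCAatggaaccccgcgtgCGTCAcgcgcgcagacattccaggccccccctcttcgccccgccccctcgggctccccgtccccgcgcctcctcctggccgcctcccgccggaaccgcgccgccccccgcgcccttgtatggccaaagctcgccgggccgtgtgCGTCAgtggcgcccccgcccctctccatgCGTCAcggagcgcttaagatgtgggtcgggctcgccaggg
Nr4a2: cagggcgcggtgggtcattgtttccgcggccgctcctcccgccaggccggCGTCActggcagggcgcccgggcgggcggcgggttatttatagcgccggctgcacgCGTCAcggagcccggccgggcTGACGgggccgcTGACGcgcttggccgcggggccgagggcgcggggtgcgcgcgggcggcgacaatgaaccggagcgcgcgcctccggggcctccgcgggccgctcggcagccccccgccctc
Nr4a3: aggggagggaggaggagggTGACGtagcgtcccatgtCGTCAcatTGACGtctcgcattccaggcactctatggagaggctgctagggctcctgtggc
Fos: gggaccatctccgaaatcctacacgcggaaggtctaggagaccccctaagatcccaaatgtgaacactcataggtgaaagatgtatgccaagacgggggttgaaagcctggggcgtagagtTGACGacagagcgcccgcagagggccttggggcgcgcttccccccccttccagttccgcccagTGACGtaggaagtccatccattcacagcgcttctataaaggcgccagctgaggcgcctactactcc

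The matches in Nr4a1 began 233, 213, 69 and 40 bases before the start, those in Nr4a2 200, 144, 123 and 111, and those in Nr4a3 231, 213, 205 and 147. The matches in Fos began 129 and 66 bases before it. Btg2 held 2 matches, which overlap within a full TGACGTCA, a sequence found in 1.55% of windows. Fosb and Junb held 1 match each, and Jun and Jund held no CGTCA in this window. The AP-1 site TGANTCA (in 6.75% of windows), the receptors' own site AAAGGTCA (1.34%) and the CArG box of serum response factor (1.47%) were searched on both strands and had no match in any of the 9 windows. A match is a sequence and not evidence of binding, and no match says only that these letters are not in the window.

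Nr4a1 was present in every fibre type of both muscles and was lowest in the Myh2 nuclei of gastrocnemius. Levels are given as CPM, the UMIs of a gene per 1000000 UMIs summed over the nuclei of a class. Intervals are at 95% and cover counting error only. Gastrocnemius nuclei led by Myh4, Myh1 and Myh2 had Nr4a1 levels of 297 CPM (288 to 307), 222 (177 to 274) and 54.2 (35.7 to 78.8). Plantaris nuclei of the same 3 types had 348 CPM (339 to 357), 445 (421 to 469.8) and 226 (205 to 248). The order of the fibre types thus differed: Myh4 nuclei were highest in gastrocnemius and Myh1 nuclei in plantaris, with no overlap of intervals between neighbours in either order. The log2 ratio of plantaris over gastrocnemius was 0.23 (0.17 to 0.29) for Myh4 nuclei, 1.0 (0.69 to 1.34) for Myh1 and 2.06 (1.5 to 2.68) for Myh2. In Myh4 nuclei that ratio was close to the median of all genes, 0.20, and scaling by the median ratio of all genes, a shift of 0.18, left Nr4a1 at 0.04.

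Nr4a2 was nearly absent from the gastrocnemius fibres and present in all 3 fast fibre types of plantaris. Gastrocnemius held 10 Nr4a2 UMIs in its 4544 Myh4 nuclei, 0 in Myh1 nuclei and 1 in Myh2 nuclei, and plantaris held 288, 87 and 47. These are 0.709 CPM (0.340 to 1.30) against 18.2 (16.2 to 20.4) in Myh4 nuclei. In Myh2 nuclei they are 2.01 CPM (0.0508 to 11.2) against 24.0 (17.6 to 31.9). The 0 UMIs in Myh1 nuclei of gastrocnemius were set to a floor of 3 UMIs, or 7.74 CPM. Plantaris had 29.98 CPM (24.0 to 37.0), 3.87-fold that floor, a value that depends on the floor and is not an interval limit. The log2 ratio of plantaris over gastrocnemius was 4.68 (3.78 to 5.76) in Myh4 nuclei and, resting on 1 UMI in gastrocnemius, 3.58 (1.03 to 8.91) in Myh2 nuclei. No nucleus of the fast fibre classes held more than 4 Nr4a2 UMIs.

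Nr4a3 was highest in Myh1 nuclei in both muscles and was higher in plantaris in each fibre type. The Myh4, Myh1 and Myh2 nuclei of gastrocnemius held 151, 38 and 4 Nr4a3 UMIs, or 10.7 CPM (9.07 to 12.6), 98.0 (69.4 to 135) and 8.03 (2.19 to 20.5). Those of plantaris held 994, 1095 and 357, or 62.9 CPM (59.0 to 66.9), 377 (355 to 400.3) and 182 (164 to 202). Plantaris Myh2 nuclei lay above its Myh4 nuclei, whereas in gastrocnemius the intervals of these 2 types overlapped. The log2 ratio of plantaris over gastrocnemius was 2.55 (2.31 to 2.81) in Myh4 nuclei and 1.94 (1.48 to 2.45) in Myh1 nuclei. The gastrocnemius Myh1 value turned on 1 nucleus, which held 23 of the 38 UMIs. Without it, a step added after the values were seen, the level was 39.4 CPM (22.1 to 65.1), and the ratio between the muscles was 3.26.

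**Figure D1:**
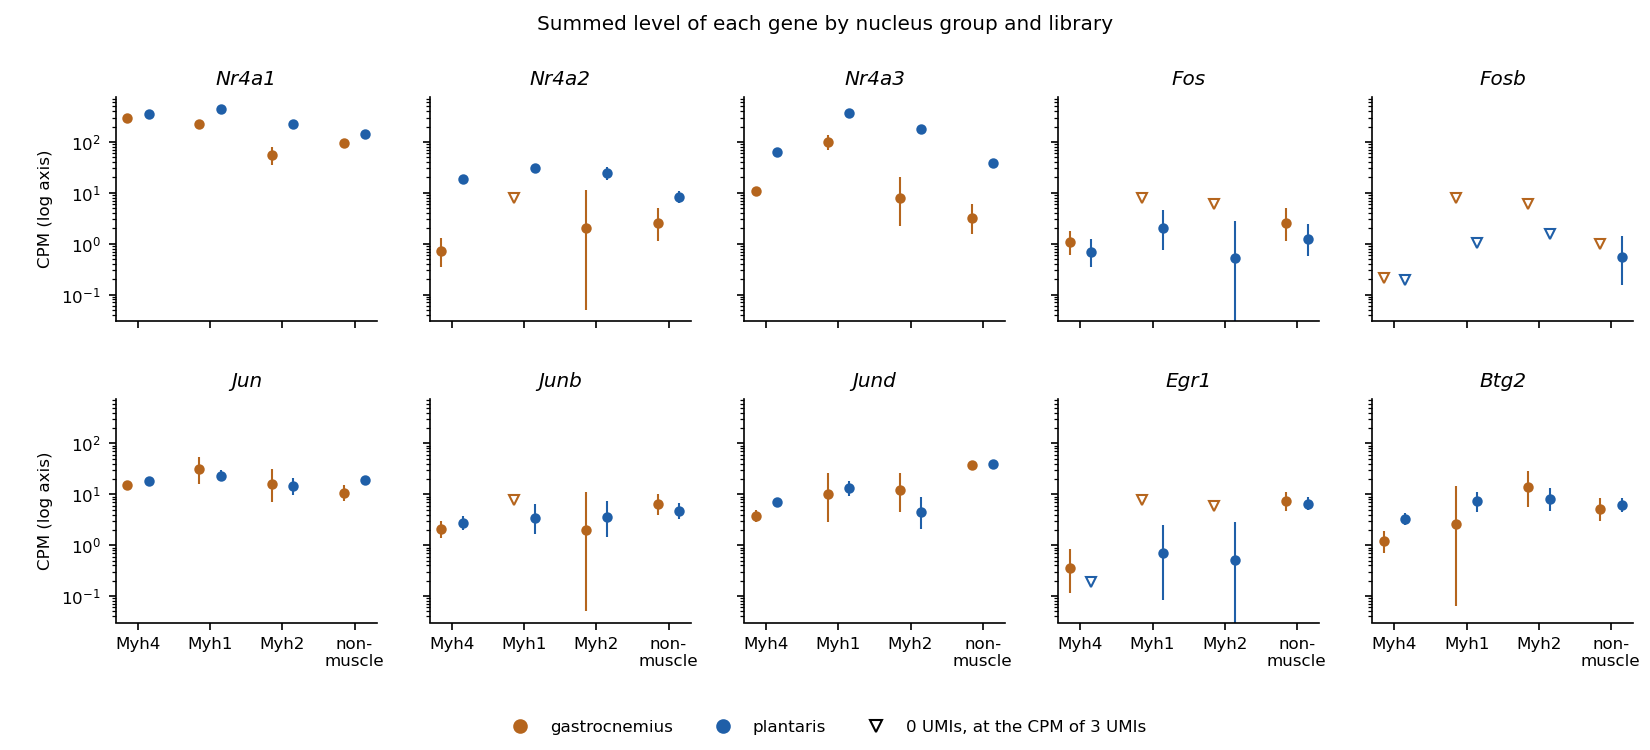
Summed level of each gene in CPM (log axis) in Myh4, Myh1, Myh2 and non-muscle nuclei of gastrocnemius (brown) and plantaris (blue). Bars are 95% exact Poisson intervals of counting error, and open triangles stand for 0 UMIs and are drawn at the CPM of 3 UMIs. Nr4a2 and Nr4a3 are higher in plantaris in every class shown, while Jun stays between 10.7 and 31.0 CPM and Fosb has 0 UMIs in all 6 fibre classes.

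None of the AP-1 genes reached a 2-fold difference between the muscles in Myh4 nuclei, with Jund just below it, and Fosb had no UMI there. Jun, the main transactivating subunit, stood at 15.2 CPM (13.2 to 17.4) in Myh4 nuclei of gastrocnemius and 18.3 (16.3 to 20.6) in those of plantaris. The log2 ratio of plantaris over gastrocnemius for Jun was 0.27 (0.01 to 0.53) in Myh4 nuclei. In Myh1 and Myh2 nuclei it was −0.40 (−1.30 to 0.62) and −0.17 (−1.34 to 1.18), so neither interval excluded 0. Junb, a subunit that often restrains Jun, stood at 2.06 CPM (1.38 to 2.95) and 2.78 (2.02 to 3.74) in Myh4 nuclei, a log2 ratio of 0.44 (−0.27 to 1.16). The intervals of the Junb levels overlapped. Jund, the most constitutive Jun protein, stood at 3.76 CPM (2.82 to 4.92) and 7.21 (5.95 to 8.66) in Myh4 nuclei, a log2 ratio of 0.94 (0.46 to 1.44). Jund passed 2-fold under 3 alternatives: 1.096 when nuclei were thinned to 1000 UMIs, 1.001 when CPM was averaged over nuclei, and 1.31 in nuclei with 80% of their Myh UMIs from the leading transcript.

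Fos and Fosb, which are among the Fos-family partners of Jun proteins in AP-1, were almost undetected in fibres. Fos had 15 UMIs in Myh4 nuclei of gastrocnemius and 11 in those of plantaris, a log2 ratio of −0.61 (−1.88 to 0.61) whose interval spans 0. Fosb had 0 UMIs in all myonuclei of both muscles, which allows up to 0.195 CPM in gastrocnemius and 0.141 CPM in plantaris. Egr1 had 5 UMIs in Myh4 nuclei of gastrocnemius and 0 in those of plantaris, where 0 allows up to 0.190 CPM. Fosb and Egr1 had too few UMIs in fibres for a comparison at this depth. Btg2 stood at 1.21 CPM (0.702 to 1.93) in Myh4 nuclei of gastrocnemius and 3.29 (2.46 to 4.31) in those of plantaris, from 17 and 52 UMIs. Its log2 ratio was 1.45 (0.63 to 2.33) in Myh4 nuclei and −0.78 (−2.14 to 0.74) in Myh2 nuclei, where it rests on 7 and 16 UMIs.

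Counted with a minimum of 20 UMIs over both libraries, 8 of the 10 genes could be compared in Myh4 nuclei, all but Fosb and Egr1. Nr4a2, Nr4a3 and Btg2, 3 of these 8, were at least 2-fold higher in plantaris, and none was 2-fold lower. Of all 12646 genes with as many UMIs, 8.94% were at least 2-fold higher in plantaris and 2.15% lower. In Myh1 nuclei 4 of 6 genes, Nr4a1, Nr4a2, Nr4a3 and Btg2, were at least 2-fold higher in plantaris, against 13.3% of all genes. There, Nr4a1 sat on the limit and Btg2 rested on 1 UMI in gastrocnemius, with an interval of −1.15 to 6.86 around 1.49. In Myh2 nuclei the 3 receptors, of 5 genes compared, were at least 2-fold higher in plantaris, against 8.76% of all genes. Since the genes were chosen with these differences in view, the counts describe the choice and are read no further.

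**Figure D2:**
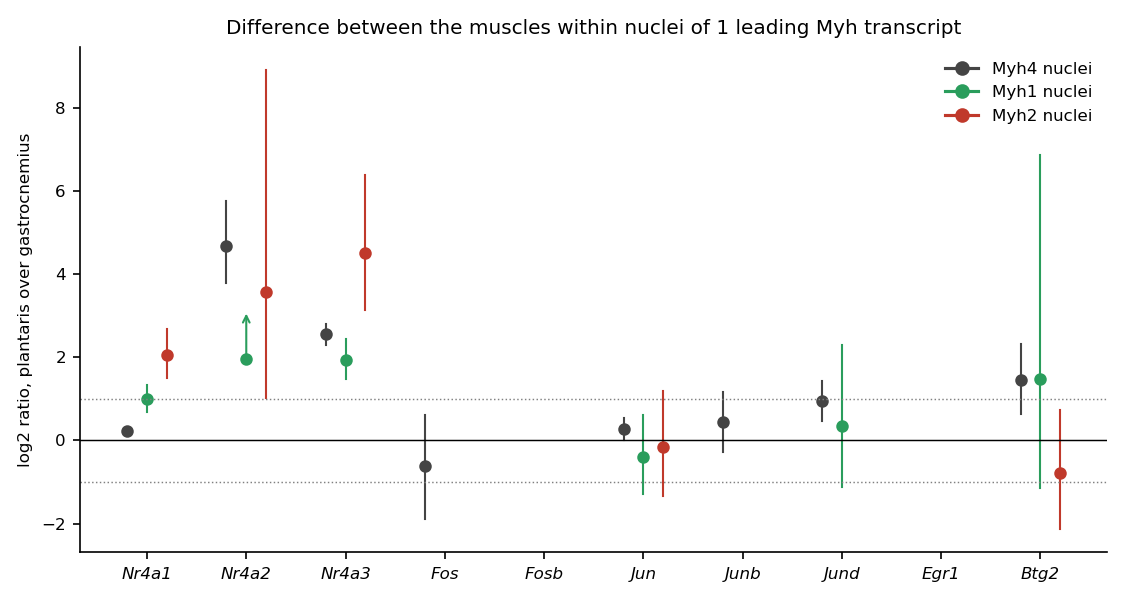
Log2 ratio of plantaris over gastrocnemius for each gene within Myh4 (grey), Myh1 (green) and Myh2 (red) nuclei, for genes with 20 or more UMIs over both libraries. Lines are 95% exact intervals of counting error, and dotted lines mark 2-fold. The arrow marks a ratio with 0 UMIs in gastrocnemius, set to a floor of 3 counts. The NR4A receptors lie above 0 in all 3 fibre types, from 0.23 to 4.68, whereas Jun lies between −0.40 and 0.27.

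Fibre types were also compared within 1 library, where the muscle and the preparation do not differ. In gastrocnemius, the log2 ratio of Myh1 over Myh4 nuclei was 3.19 (2.64 to 3.72) for Nr4a3, or 1.88 without the nucleus with 23 UMIs. For Nr4a1 it was −0.42 (−0.75 to −0.11) and for Jun 1.03 (0.05 to 1.86). Of 4 genes compared there, 3 were at least 2-fold higher in Myh1 nuclei (Nr4a3, Jun and Jund, the last from 4 UMIs), against 13.4% of all genes. In plantaris the ratio was 2.59 (2.46 to 2.71) for Nr4a3, 0.72 (0.36 to 1.07) for Nr4a2, 0.35 (0.27 to 0.44) for Nr4a1 and 1.14 (0.33 to 1.89) for Btg2. There, 2 of 7 genes, Nr4a3 and Btg2, were at least 2-fold higher in Myh1 nuclei, against 5.66% of all genes.

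For Myh2 over Myh4 nuclei, Nr4a1 was lower in both muscles, at −2.46 (−3.06 to −1.91) on the log2 scale in gastrocnemius and −0.62 (−0.77 to −0.48) in plantaris. Nr4a3 was at −0.42 (−2.31 to 0.97) in gastrocnemius and 1.54 (1.36 to 1.71) in plantaris. Btg2 was higher in Myh2 nuclei of both muscles, by 3.54 (2.03 to 4.89) in gastrocnemius, from 7 UMIs, and 1.31 (0.41 to 2.15) in plantaris. The members at least 2-fold higher in Myh2 nuclei were 2 of 6 in gastrocnemius, Jund and Btg2, against 18.0% of all genes, and Nr4a1 alone was at least 2-fold lower, against 11.2%. In plantaris they were 2 of 7, Nr4a3 and Btg2, against 8.64%. The Jund value in gastrocnemius rested on 6 UMIs in Myh2 nuclei.

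Myh4 and Myh1 nuclei were also put in a finer order. They were binned by the Myh1 share among Myh1 and Myh4 UMIs, given at least 10 such UMIs. In plantaris, Nr4a3 stood at 51.8 CPM (47.5 to 56.4) in 2421 nuclei with no Myh1 UMI and 73.3 (62.6 to 85.2) where Myh1 made up to 20%. It stood at 165 (127 to 212) between 20 and 50%, 250.2 (209 to 297) between 50 and 80%, and 380.4 (352 to 411) in 405 nuclei above 80%. Each step of Nr4a3 was upward, and among neighbouring bins only those of 20 to 50% and 50 to 80% had overlapping intervals. The bin of 20 to 50% was the deepest, at a median of 5170 UMIs per nucleus. The median was 3908 with no Myh1 UMI and 3943 above 80%. Doublets, droplets that hold mixed nuclei, are still present in the data, and their part in these steps was not tested. Over the same bins Nr4a1 went from 336 CPM (325 to 347) through 312, 399 and 418 to 427 (396 to 459). Nr4a2 went from 16.9 CPM (14.5 to 19.6) through 20.1, 13.1 (from 5 UMIs) and 27.4 to 29.8 (22.2 to 39.1). Neither rose at each step. Gastrocnemius had few mixed nuclei: Nr4a3 stood at 7.77 CPM (6.18 to 9.65) in 2951 nuclei with no Myh1 UMI and 119 (79.99 to 169) in 77 nuclei above 80%, and the bins of 20 to 50% and 50 to 80% held 11 and 14 nuclei.

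**Figure D3:**
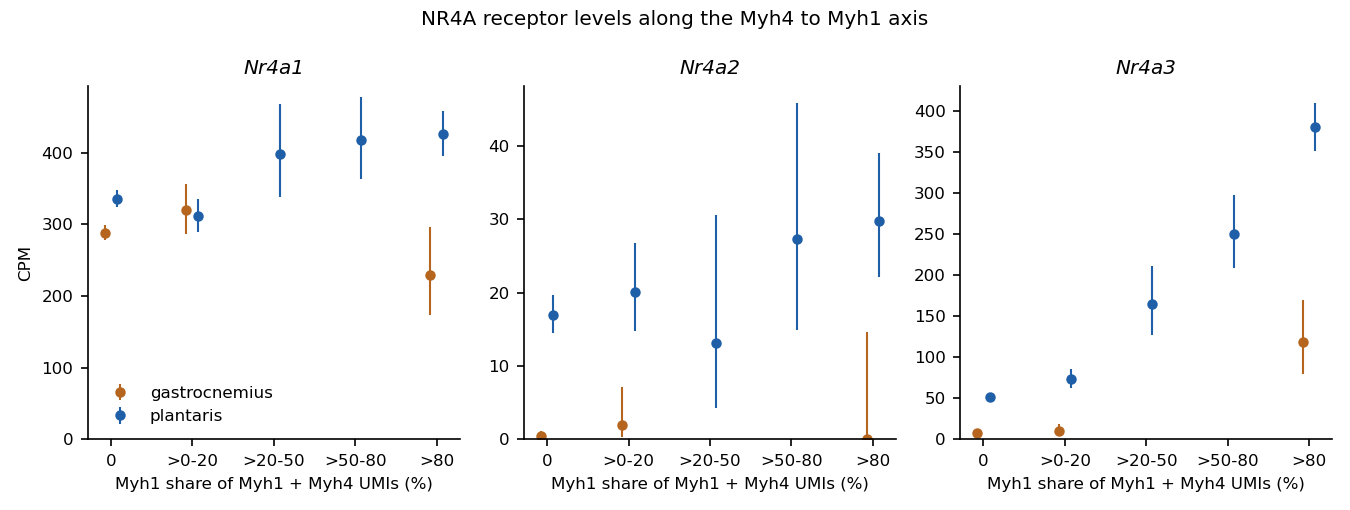
Levels of Nr4a1, Nr4a2 and Nr4a3 (CPM, linear axes) in myonuclei binned by the Myh1 share of Myh1 and Myh4 UMIs, in gastrocnemius (brown) and plantaris (blue). Bars are 95% exact Poisson intervals, and bins with under 20 nuclei are left out. Nr4a3 in plantaris goes from 51.8 to 380.4 CPM, and Nr4a1 from 336 to 427 with 312 in the bin of up to 20%.

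The clusters showed Nr4a2 and Nr4a3 unevenly spread among myonuclei. Levels are summed over all nuclei of a cluster, so that of a mixed cluster includes its Myh1 nuclei. In plantaris, the cluster with 765 Myh4 and 343 Myh1 nuclei had 257 CPM of Nr4a3, whereas the 2 large clusters of almost pure Myh4 nuclei had 28.8 and 21.2 CPM. Nr4a2 stood at 35.7 CPM in that mixed cluster and at 9.07 and 21.9 CPM in the pure ones, and the Nr4a2 intervals of the 2 pure clusters, 6.95 to 11.6 and 17.8 to 26.5, did not overlap, whereas their Nr4a3 intervals did. In gastrocnemius, a cluster of 679 nuclei, 638 of them Myh4 nuclei, held 50.3% of all myonuclear Nr4a3 UMIs at 48.4 CPM, and the 2 largest Myh4 clusters had 2.15 and 2.47 CPM. Nr4a3 was higher in plantaris within 3 clusters that both muscles shared: 257 against 43.0 CPM in the mixed Myh4 and Myh1 cluster, 276 against 45.1 in the Myh2 and Myh1 cluster, and 111 against 19.8 in the myotendinous junction cluster. The fibre mix was not held equal. The junction cluster held 39 Myh1 and 81 Myh4 nuclei in plantaris, but 2 and 79 in gastrocnemius. The Myh2 and Myh1 cluster held 356 Myh1 and 542 Myh2 nuclei in plantaris, and 66 and 167 in gastrocnemius. These clusters were drawn from the expression of other genes in the same nuclei and the values are a description.

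A small number of nuclei held much of the Nr4a3 signal. In Myh1 nuclei of plantaris, 41.2% of nuclei held a Nr4a3 UMI, and 75 nuclei with 5 or more UMIs held 60.9% of them, up to 29 in 1 nucleus. In Myh4 nuclei of plantaris the share with a UMI was 11.1%, and in those of gastrocnemius 1.54%. For Nr4a1 in Myh4 nuclei, the shares were 50.4% in gastrocnemius and 60.2% in plantaris, and nuclei with 5 or more UMIs held 13.2% and 23.6% of its UMIs. In non-muscle nuclei, at medians of 1203 and 1465 UMIs against 2942.5 and 3422.5 in Myh4 nuclei, the shares were 10.7% and 16.7% for Nr4a1 and 0.459% and 5.06% for Nr4a3. After each nucleus was thinned to 1000 UMIs, gastrocnemius and plantaris had Nr4a3 in 0.747% and 5.08% of Myh4 nuclei, 2.40% and 20.9% of the Myh1 class, and 0.633% and 13.1% of the Myh2 class. The thinning left out 125 and 45 Myh4 nuclei, 7 and 16 Myh1 nuclei, and 16 and 25 Myh2 nuclei. The gastrocnemius Myh1 and Myh2 shares are then 3 and 1 nuclei, from which no order is read, and in Myh4 nuclei the order of the muscles was the same with and without thinning.

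In nuclei of other cell types, Nr4a1 and Nr4a3 stood at a fraction of their fibre level close to that of Ttn, Neb, Trdn and Myh4. It was below that of the fibre genes Ckm and Acta1. Jund and Egr1 stood above their fibre level. Droplets with nuclei of other types can carry RNA set free from the fibres. The fibre genes Ttn, Neb, Trdn, Myh4, Ckm and Acta1 serve as its measure. In non-muscle nuclei the first 4 of them stood at 26.7% to 36.1% of their myonuclear CPM in gastrocnemius and at 32.7% to 43.0% in plantaris. Nr4a1 stood at 33.0% and 40.8% of its own myonuclear CPM, Nr4a3 at 24.99% and 32.0%, and Nr4a2 in plantaris at 40.2%. None lay above the range of Ttn, Neb, Trdn and Myh4. No expression in non-muscle nuclei is read from these sums, and the part of free RNA in them was not tested. The ratio was not the same in every cell type for Nr4a3 in plantaris. It was 17.1% in mesenchymal progenitors, the fibroblast-like cells of the tissue, where Ttn, Neb, Trdn and Myh4 stood at 25.2% to 34.6%. It was 73.3% in tenocytes and 66.4% in muscle stem cells, where these 4 genes stood at 34.0% to 49.0% and 38.6% to 52.8%. It was 63.1% in Schwann cells, from 10 UMIs, and 58.1% in mural cells, where they stood at 43.1% to 55.1% and 44.0% to 53.0%. Ckm and Acta1 stood at 67.6% and 223% in tenocytes and 77.3% and 252% in muscle stem cells. They stood at 72.9% and 171% in Schwann cells and 73.2% and 186% in mural cells. Nr4a3 thus lay above Ttn, Neb, Trdn and Myh4 in these 4 cell types. It lay above Ckm in tenocytes and below it in muscle stem cells, Schwann cells and mural cells. Acta1 stood so high that a value below it says little, and the source of this Nr4a3 RNA was not tested. In plantaris, 43 non-muscle nuclei with 5 or more Nr4a1 UMIs held 26.6% of the 1023 there, and the part of mixed nuclei in these values was not tested. Over all non-muscle nuclei, Ckm and Acta1 stood higher than the other fibre genes, at 51.9% and 115% in gastrocnemius and 62.4% and 187% in plantaris. Nr4a2 in gastrocnemius stood at 362%, from 8 UMIs in non-muscle nuclei and 11 in fibres.

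Jund stood at 37.8 CPM (31.3 to 45.3) in non-muscle nuclei of gastrocnemius and 39.5 (35.02 to 44.4) in those of plantaris, 882% and 495% of its fibre level. Egr1 stood at 7.44 CPM (4.72 to 11.2) and 6.56 (4.82 to 8.72), from 23 and 47 UMIs, against 5 and 3 UMIs in all myonuclei. The log2 ratio of plantaris over gastrocnemius in non-muscle nuclei was 0.06 (−0.25 to 0.38) for Jund and −0.18 (−0.93 to 0.61) for Egr1, and both intervals hold 0. Junb stood at 332% and 155% of its fibre level, Btg2 at 295% and 142%, and Jun at 68.7% and 101%. In plantaris the values of Junb, Btg2 and Jun lay below that of the fibre gene Acta1, 187%, and above those of Ttn, Neb, Trdn, Myh4 and Ckm. The part of free RNA in them was not tested. In gastrocnemius 5 of 8 genes, Fos, Junb, Jund, Egr1 and Btg2, were at least 2-fold higher in non-muscle nuclei than in myonuclei, against 34.4% of all genes, and Nr4a1 and Nr4a3 were at least 2-fold lower, against 10.0%. In plantaris 2 of 9, Jund and Egr1, were, against 34.4% of all genes, and the 3 receptors were at least 2-fold lower, against 10.0%.

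**Figure D4:**
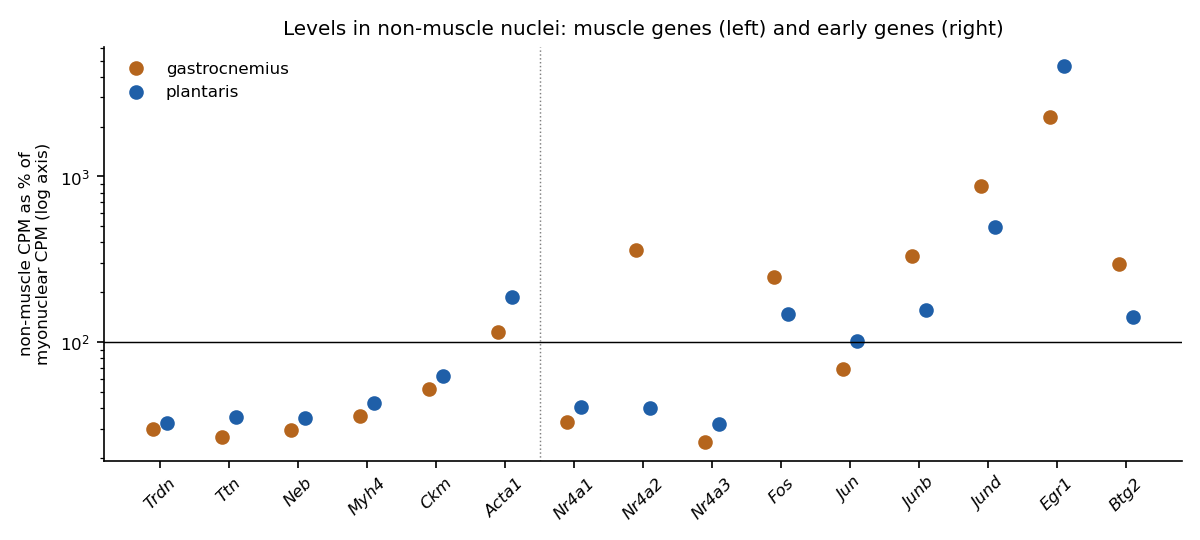
CPM in non-muscle nuclei as a percentage of the CPM in myonuclei of the same library (log axis), for 6 fibre genes (left of the dotted line) and 9 of the early genes (right), in gastrocnemius (brown) and plantaris (blue). The line marks equal levels. Nr4a1 and Nr4a3 lie near Ttn, Neb, Trdn and Myh4, between 24.99% and 40.8%, and Jund and Egr1 lie at 495% and above.

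Among the other cell types, Jund was detected in every one with 50 or more nuclei in plantaris. It ranged from 24.3 CPM (15.6 to 36.2) in mural cells, the pericytes and smooth muscle of vessels, to 65.7 (41.2 to 99.5) in tenocytes and 150.1 (95.1 to 225) in endothelium, the last from 23 UMIs. The intervals of tenocytes and endothelium overlapped. Jund was the 1 of 2 genes at least 2-fold higher in plantaris in endothelium (11.4% of all genes), where gastrocnemius had 45 nuclei and 2 Jund UMIs. Mesenchymal progenitors had 44.5 CPM (35.8 to 54.7) of Jund in gastrocnemius and 38.8 (32.9 to 45.6) in plantaris. Egr1 stood at 9.40 CPM (5.66 to 14.7) and 6.26 (4.01 to 9.31) in them. Fosb had 4 UMIs in all non-muscle nuclei of plantaris and 0 in those of gastrocnemius, which allows up to 0.970 CPM. Fos had 8 and 9 UMIs in non-muscle nuclei of gastrocnemius and plantaris.

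Nr4a3 had a higher CPM in plantaris in non-muscle nuclei as well, and RNA from the fibres, where it was also higher, cannot be told apart from the nuclei's own in these values. Over all non-muscle nuclei, Nr4a2 and Nr4a3, 2 of 8 genes compared, were at least 2-fold higher in plantaris, against 5.98% of all genes. In mesenchymal progenitors Nr4a3 stood at 3.46 CPM (1.39 to 7.14) in gastrocnemius and 20.9 (16.5 to 26.0) in plantaris, and in muscle stem cells at 0 UMIs, which allow up to 14.3 CPM, and 81.2 CPM (59.2 to 109). Nr4a2 and Nr4a3, 2 of 7 genes compared, were at least 2-fold higher in plantaris in mesenchymal progenitors, against 5.81% of all genes. In gastrocnemius, Nr4a3 had 0 UMIs in macrophages and tenocytes, where its ratios take a floor of 3 counts, and 3 UMIs in mural cells. With that limit, Nr4a3 was at least 2-fold higher in plantaris in macrophages (1 of 3 genes, against 14.9%), mural cells (1 of 3, against 10.6%) and tenocytes (1 of 3, against 11.2%). In muscle stem cells Nr4a3 and Jund were (2 of 3, against 8.93%), Jund from 3 UMIs in gastrocnemius. In the clusters of the myotendinous junction, where fibres meet the tendon, Nr4a3 was the 1 of 2 genes at least 2-fold higher in plantaris (9.80% of all genes). The fibre mix differed there, with 39 Myh1 nuclei in plantaris and 2 in gastrocnemius. At the neuromuscular junction only Nr4a1 could be compared, and it was not (0 of 1, against 9.09%), with a log2 ratio of −0.50 (−1.01 to 0.02).

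The count of pairs detected in the same nucleus 2-fold more often than the genes' shares give was 0 in both muscles. That is close to the share over pairs with other genes, so nothing about the members is read from it. For each pair, the nuclei with both genes were counted among the Myh4 nuclei of 1 library and divided by the number that the product of both shares gives within 10 strata of nuclear UMIs. In gastrocnemius 0 of 7 pairs with a product of 5 or more nuclei reached 2-fold, where 0.259% of pairs of a member with another gene did, and in plantaris 0 of 15, against 0.155%. Every counted pair in gastrocnemius held Nr4a1, which was found in so many Myh4 nuclei that a pair with it could hardly reach 2-fold. With non-members its highest ratio was 1.69 over 12316 genes in gastrocnemius and 1.57 over 13223 in plantaris. The outcome of the Nr4a1 pairs at 2-fold was thus all but fixed, and the non-member pairs that reached it held other members. Among the counted pairs, the highest ratio was that of Nr4a2 and Nr4a3 in plantaris, 54 nuclei against 29.8, or 1.81 (1.36 to 2.36). It was 1.31 (0.99 to 1.71) when the strata were drawn within each cluster, a step added after the data were seen. The Myh1 nuclei of plantaris gave 1.03 (0.71 to 1.44) and its Myh2 nuclei 1.24 (0.69 to 2.04).

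Nr4a1 and Nr4a3 were found together in 51 Myh4 nuclei of gastrocnemius against 37.9 by the product, a ratio of 1.34 (1.001 to 1.77). In plantaris they were found together in 343 against 292, or 1.18 (1.05 to 1.31). Nr4a1 with Jun, Junb, Jund, Fos or Btg2 gave ratios from 0.76 to 1.13 in gastrocnemius and from 1.04 to 1.21 in plantaris, with every interval holding 1. Nr4a2 and Jund went the other way in plantaris: 1 nucleus held both against 7.28 by the product, a ratio of 0.14 (0.00348 to 0.77). Jun and Jund, the only counted pair of AP-1 genes, were found together in 6 nuclei against 7.97, or 0.75 (0.28 to 1.64). Of the Myh4 nuclei of gastrocnemius, 46.0% held none of the 10 genes and 219 nuclei held 2 or more. In plantaris 32.5% held none and 741 nuclei held 2 or more. The nuclei with more members were also deeper, from a median of 2535.5 UMIs with none to 5245.5 with 3 in gastrocnemius.

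**Figure D5:**
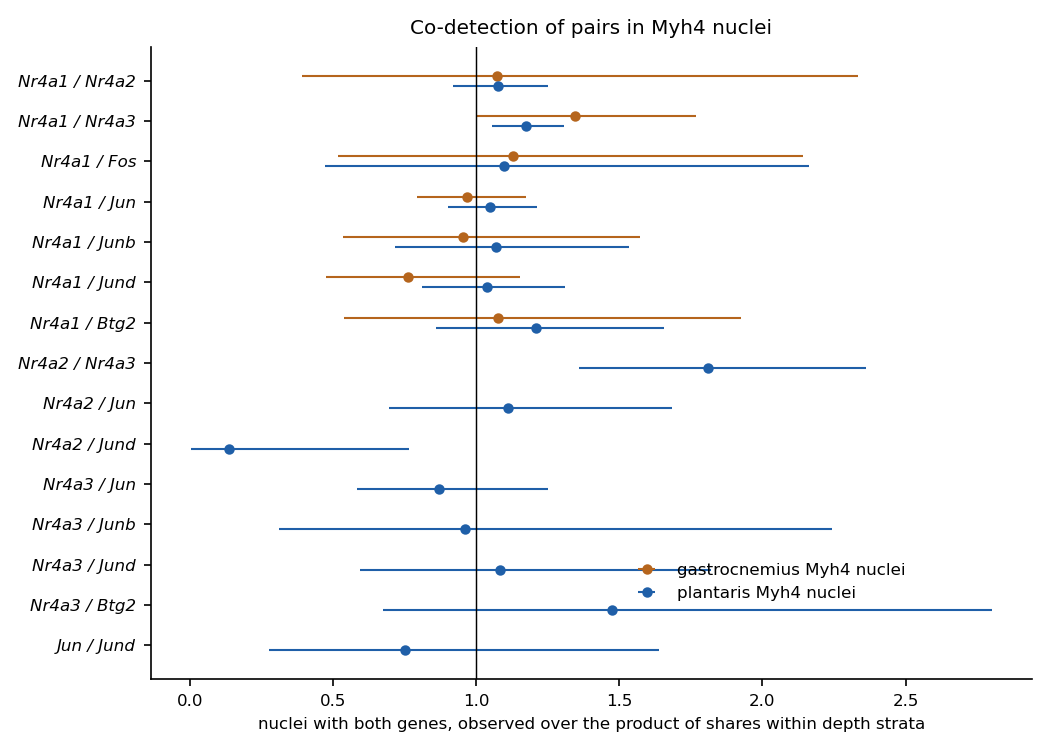
Nuclei with both genes of a pair, divided by the number given by the product of the genes' shares within strata of nuclear UMIs, in Myh4 nuclei of gastrocnemius (brown) and plantaris (blue). Bars are 95% exact Poisson intervals of the observed number, and 1 marks the product. Nr4a2 with Nr4a3 lies highest at 1.81 and Nr4a2 with Jund lowest at 0.14, and apart from Nr4a1 with Nr4a3 the other intervals hold 1.

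Genes outside the group were ranked by co-detection with Myh4 nuclei holding 2 or more members, 219 in gastrocnemius and 741 in plantaris. The strata were of nuclear UMIs and not drawn within clusters, so genes of the clusters rich in Nr4a3 were not set apart. Of 7398 genes ranked by the smaller of the 2 libraries' ratios, the first was Perm1, a muscle regulator of mitochondrial genes, at 2.55 in gastrocnemius and 1.78 in plantaris. It was followed by Gm34455 (2.08 and 1.69), Sntg2 (2.09 and 1.69), which encodes a syntrophin, and Nrp1 (1.94 and 1.61), the neuropilin co-receptor. The other six were Bcas3os1, the lactate transporter Slc16a1, the stretch-responsive Ankrd2, Phlda3, the sodium pump subunit Atp1b1 and Platr32, with smaller ratios from 1.49 to 1.56. The median of the smaller ratio over all ranked genes was 0.95. The gastrocnemius ratios rest on few nuclei: 19 against 7.45 by the product for Perm1, 10 against 6.42 for Bcas3os1 and 10 against 5.70 for Platr32.

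Related genes were read from lists, which were also drawn up with earlier results of these data known, as log2 ratios of plantaris over gastrocnemius in Myh4 nuclei. The median of all genes was 0.20. Each list count stands beside the 8.94% of all genes that were at least 2-fold higher in plantaris and the 2.15% that were lower. No list is called particular from its count. Among other early genes, 7 of 25 with enough UMIs (of 36 listed) were at least 2-fold higher and 1 lower in plantaris, with a median of 0.17. Sik1, a kinase that cAMP induces and that restrains CREB co-activators, was at 3.14 (2.64 to 3.68), from 36 and 356 UMIs. Zfp36l1, which destabilises mRNA, was at 1.92 (1.51 to 2.35), and Klf2, a Krüppel-like factor, at 1.73 (0.49 to 3.18). Of AP-1 partners, 3 of 10 (of 14 listed) were at least 2-fold higher and 1 lower, with a median of 0.68. Fosl2, a Fos relative, was at 2.05 (1.75 to 2.36), from 8.01 to 33.2 CPM, and Maff, a small Maf protein, at 1.28 (−0.04 to 2.77). Atf3, at −1.30 (−1.79 to −0.81), had 98 of its 116 UMIs in gastrocnemius in 1 nucleus and 32 of 53 in plantaris in another. Without each library's highest nucleus Atf3 stood at 1.28 and 1.33 CPM.

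Of 8 NR4A partners, which include the heterodimer partners Rxra, Rxrb and Rxrg, 0 were 2-fold higher or lower, with a median of 0.24. The largest difference was that of the co-repressor Trim28, 0.88 (0.48 to 1.29), with Rxrb at 0.67. Of 19 cAMP and CREB genes, 3 were at least 2-fold higher and 0 lower, with a median of 0.02: Sik1, the phosphodiesterase Pde4b at 1.37 (1.32 to 1.42) and the CREB co-activator Crtc2 at 1.13 (0.75 to 1.53). Of 12 genes (13 listed) around serum response factor, 1 was higher, Map3k1 at 1.14 (0.88 to 1.41), with a median of 0.01, Srf at −0.52 (−1.08 to 0.03) and the kinase Mapk14 at 0.38. The 1 of 5 EGR partners with enough UMIs, the co-repressor Nab1, was at 0.58 (0.15 to 1.01). Of 12 BTG, TOB and CCR4-NOT genes (13 listed), 1 was higher, Btg3 at 1.55 (0.28 to 3.02), with a median of 0.20, Btg1 at −0.64 (−1.40 to 0.09) and Tob2 at 0.60.

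Among muscle genes reported to respond to NR4A receptors, 0 of 18 (20 listed) were 2-fold higher in plantaris and 1 was lower, with a median of 0.04. The lower gene was Pdp1, the phosphatase that activates pyruvate dehydrogenase, at −1.53 (−1.82 to −1.25), and the kinase of the same enzyme, Pdk4, was at −0.62 (−0.66 to −0.58). Ppargc1b, a co-activator of mitochondrial genes, was at 0.63 (0.56 to 0.71). Stress chaperones, which heat and rough handling of tissue are known to induce, were also listed. All 8 were at least 2-fold higher in plantaris, against 8.94% of all genes, with a median of 2.66. They were led by the heat shock genes Hspa1a at 4.64 (2.05 to 9.996), from 1 and 28 UMIs, Hspa1b at 3.59 (1.60 to 6.71), from 2 and 27, and Hsph1 at 2.87 (2.60 to 3.14). For the chaperones too, the muscle, the mice and the library preparation cannot be told apart. Their part in the differences of Nr4a2 and Nr4a3 was not tested.

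The matches to CGTCA were also set against the difference between the muscles. Among genes with a RefSeq window and enough UMIs in Myh4 nuclei, leaving out the members, 8.46% of 9563 were at least 2-fold higher in plantaris. Of those with at least 1 core the share was 7.70% of 2921, with at least 2 it was 7.51% of 772, with at least 3 it was 5.49% of 164, and with at least 4 it was 0 of 36. Those 36 genes had a median log2 ratio of 0.34, against 0.20 for all. Among the 4-core genes, the highest after Nr4a2 and Nr4a3 were Coq10b at 0.94, a coenzyme Q carrier, and Ell2 at 0.87, an elongation factor, above Nr4a1 at 0.23. This grouping was made after the members' windows were seen.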

How the data were processed

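The 10 genes, the gene lists, the comparisons and the alternatives were chosen with earlier results of these data known. Per the labels' protocols, muscles were minced and homogenised with beads, nuclei were stained with propidium iodide and sorted, and libraries were made with the Chromium 3' kit. The submitters' processing notes name Cell Ranger 6.0.1 and the mouse build mm10. The deposited table holds UMI counts as whole numbers, made by the authors and taken as not normalised, and a second deposited table gives the library of each barcode. The annotation, the counting of intronic reads and the counting strand are not stated, so reads of overlapping or antisense genes may be mixed.

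The filter (at least 200 genes, a mitochondrial share below 5%) removed 0 nuclei of gastrocnemius and 6 of plantaris. Scrublet, within scanpy, called 2 and 1 doublets (0.0271% and 0.0109%). Rates under 0.5% were treated as a failed call, and doublets are still present. The analysed nuclei were 7372 in gastrocnemius and 9149 in plantaris, and 17 barcodes occur in both libraries. Library totals were 19048595 and 29248275 UMIs. Clusters (leidenalg 0.10.2, resolution 1, scanpy 1.11.5 and Python 3.11.15) were drawn without the members among 2000 variable genes and named from marker lists, with cut-offs set while naming. A myonuclear cluster needed 3 markers such as Ttn and Ryr1, and another type 3 of its own, such as Pdgfra and Dcn for mesenchymal progenitors. Myonuclei needed 3 or more UMIs of Myh1, Myh2, Myh4 and Myh7 to be classed, and ties were left out.

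UMIs were summed per class and library. Intervals are exact Poisson (CPM), exact Clopper-Pearson (shares) or exact conditional binomial (ratios), computed with scipy 1.17.1. A 0 was set to a floor of 3 counts in a ratio, and no ratio was given where that floor lay above the other group's level. A gene was compared with 20 or more UMIs over both groups. Intervals and co-detection were tested on simulated data with planted changes. Gene positions are from GENCODE release M21 and promoters from RefSeq, for 9 of the 10 genes. All members are named; of each list, the 3 genes with the largest absolute ratio in Myh4 nuclei; and the 10 non-members with the highest smaller co-detection ratio. No test was run, because nuclei are not replicates.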

Additional observations from a re-analysis of the deposited data

Results flagged for a closer look

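For Nr4a1, the difference between Myh1 and Myh4 nuclei had opposite directions in the muscles. The log2 ratio of Myh1 over Myh4 nuclei was −0.42 (−0.75 to −0.11) in gastrocnemius, from 86 Nr4a1 UMIs in 132 Myh1 nuclei, and 0.35 (0.27 to 0.44) in plantaris, from 1291 UMIs in 763. Neither interval, which covers counting error only, holds 0. The difference between the muscles was not tested, since each muscle has 1 library. Under the 6 alternatives tried, the gastrocnemius value lay between −0.53 and −0.21 and the plantaris value between 0.35 and 0.45.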

How the results depend on the processing

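No paired analysis was possible because replicates carry no numbers and shared mice are not stated. With 1 library per muscle none could be left out. Of the recomputed counts of genes or pairs, 65 stayed within 1.5 times the value reported and 8 did not. Thinned to 1000 UMIs, the genes at least 2-fold higher in plantaris in Myh1 nuclei numbered 1 in place of 4. Those higher in Myh2 than Myh4 nuclei then numbered 0 in gastrocnemius and 1 in plantaris in place of 2 each, and those higher in non-muscle nuclei of gastrocnemius 2 in place of 5. Thinning leaves fewer genes above the minimum. With 10 or more Myh UMIs and 80% from the leading transcript, the Myh1 count between the muscles was 2. When CPM was averaged over nuclei, the Myh2 count in gastrocnemius was 1. With no minimum of UMIs, the Myh1 over Myh4 count in plantaris was 4 in place of 2, and with a product of 2 or more nuclei 1 pair in plantaris, Jun with Btg2, reached 2-fold. Of the recomputed single values, 416 moved by less than their counting interval, 40 moved by more and none turned a 2-fold call into the opposite one. Of 343 recomputed log2 ratios, whatever their UMIs, 14 gained a 2-fold call, 10 lost one and 12 turned sign. Between the muscles, thinning took Nr4a2 from 1.95 to 0.59 in Myh1 nuclei and from 3.58 to 0.54 in Myh2 nuclei. Both thinned values have 0 UMIs left in gastrocnemius, set to the floor of 3 counts. Thinning took Nr4a1 to 0.92 in Myh1 nuclei. It took Jun in Myh2 nuclei from −0.17 to 1.39 and Btg2 there to −2.37. With 80% of Myh UMIs from the leading transcript, the Myh1 values of Nr4a1 and Btg2 were 0.88 and 0.90. Jund in Myh4 nuclei lay between 0.76 and 1.31. In Myh4 nuclei the ratio between the muscles lay between 4.18 and 4.87 for Nr4a2 and between 2.37 and 2.80 for Nr4a3, and that of Btg2 between 1.26 and 3.68. Median-ratio scaling moved all ratios of non-muscle over myonuclei by 0.42 in gastrocnemius and 0.39 in plantaris. Fos, Fosb and Egr1 are limited by their few UMIs, and gastrocnemius Myh1 and Myh2 nuclei by their number.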

Other observations

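The genes most often found with Nr4a3 in Myh4 nuclei were read after the values were seen, as counts of nuclei against the product of the shares within strata of nuclear UMIs. In gastrocnemius, of 4282 genes with a product of 5 or more, the first was Ptpn3, a tyrosine phosphatase, with 28 nuclei against 7.72, a ratio of 3.63 (2.41 to 5.24). It was followed by 2310016D03Rik at 3.31 (2.32 to 4.58), the potassium channel gene Kcnc1 at 3.21 (2.07 to 4.73) and Cd36, a fatty acid transporter, with 31 against 9.79, or 3.17 (2.15 to 4.49). Further down the first 8, Mybpc1, the slow myosin-binding protein C, had 50 against 17.2, or 2.91 (2.16 to 3.83), and Ppara, a receptor for fatty acids, 19 against 6.83, or 2.78 (1.67 to 4.34). In plantaris, of 9845 genes, the first was A630001G21Rik at 3.01 (1.78 to 4.76), followed by Gm45012 at 2.69 (1.69 to 4.07). The first 8 also held Alpl, the alkaline phosphatase, with 58 against 22.1, or 2.63 (1.995 to 3.396). Xirp1, a protein of the myotendinous junction and intercalated disc, was among them with 17 against 7.36, or 2.31 (1.35 to 3.70). The first 8 genes of the muscles had none in common. In gastrocnemius 1 cluster held 50.3% of the myonuclear Nr4a3 UMIs. The strata were not drawn within clusters here, so genes of such a cluster were not set apart from partners of Nr4a3.

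The stress chaperones were higher in plantaris in the other fibre types too. Among Myh1 nuclei 4 of 5 with enough UMIs were at least 2-fold higher, against 13.3% of all genes, with a median log2 ratio of 1.73. Among Myh2 nuclei 3 of 4 were, against 8.76%, with a median of 1.75. The other early genes had a median of 0.87 over 11 genes in Myh1 nuclei, of which 5 were at least 2-fold higher, and 0.11 over 10 genes in Myh2 nuclei, of which 2 were. The medians of all genes were 0.10 in Myh1 nuclei and about 0 in Myh2 nuclei. All of these lists were drawn up with earlier results known.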
